A study of Mus musculus with 3 samples.

Results

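The nuclei described here carry transcripts of arterial endothelium in brown adipose tissue (BAT), the fat depot that burns lipid to make heat. They were picked by counts of 7 genes, Alox12, Mannr, Col8a1, Sema3g, Fbln5, Gja5 and Hey1, among nuclei that passed an endothelial gate, and numbered 903 of 11332 endothelial nuclei and of 36281 nuclei in all that passed the filters. The 3 libraries came from BAT of adult WT C57Bl6 mice, 1 library each of untreated tissue, of tissue after a sham operation and of denervated tissue. The untreated and denervated libraries were each made from 20 pooled mice aged 8 weeks, and denervated BAT was taken on day 3 after the nerves of a single side were cut. The study used male mice and names tamoxifen for the denervated library, and the header of the denervated table carries a run name beginning with nKO, which no source used here explains, although the labels give the genotype as WT. In its unilateral operation the other side of the same mice was sham-operated, and whether the sham library is such tissue is not stated for it. Nuclei were sorted from the floating layer of digested BAT, so the endothelial cells (ECs) are those of vessel pieces that floated with the brown adipocytes (BAs). The libraries held 9420030 to 14971579 counted transcripts.

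Blood enters a tissue through arteries and arterioles, passes capillaries and leaves through venules, and the ECs along this path differ in their transcripts. Arterial ECs are set apart by Notch signalling, by the membrane ligand ephrin-B2 and by SOX17, carry connexins 40 and 37 in their gap junctions, and rest on a wall of elastic fibres and smooth muscle. In fat tissue, capillary ECs carry the proteins that bind lipoprotein lipase and take up fatty acids, while venous ECs carry Nr2f2 and receptors for leukocyte adhesion.

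A nucleus passed the endothelial gate with at least 2 unique molecular identifiers (UMIs, counts of single captured transcripts) of Pecam1, Flt1, Kdr, Ptprb, Cyyr1 and Adgrl4 in sum, at least 4 times the sum of 5 adipocyte genes and at least 2 times the sum of 4 pericyte genes. It was called arterial when the 7 arterial genes summed to at least 2 UMIs, and it served as reference, the other endothelial nuclei, when they summed to 0. The members numbered 392 in the untreated, 407 in the sham and 104 in the denervated library, and the reference 3778, 3862 and 1497. The other 497, 617 and 178 endothelial nuclei held 1 UMI and entered neither class.

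The 7 genes, whose levels made the rule and are given as a description only, lie on GRCm38 as annotated in GENCODE vM21. Sema3g (chr14:31217860-31230352, plus strand) encodes a secreted semaphorin, a guidance cue that binds neuropilins. Col8a1 (chr16:57624258-57754737, minus strand) encodes a chain of a vessel-wall collagen. Fbln5 (chr12:101746565-101819055, minus strand) encodes fibulin-5, needed to assemble elastic fibres. Alox12 (chr11:70241457-70255353, minus strand) encodes a lipoxygenase of arachidonic acid. Hey1 (chr3:8663359-8667256, minus strand) encodes a transcription repressor induced by Notch. Gja5 (chr3:96904693-97077416, plus strand) encodes connexin 40. Mannr (chr3:29891014-29924191, plus strand) is a long intergenic RNA next to Mecom (chr3:29951296-30548008, minus strand), which encodes a zinc finger transcription factor.

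Sema3g was the gene most often behind membership. It had a UMI in 622 of the 903 members (68.9%), before Col8a1 in 363 (40.2%), Fbln5 in 218 (24.1%), Alox12 in 203 (22.5%), Hey1 in 151 (16.7%), Mannr in 146 (16.2%) and Gja5 in 79 (8.75%). Of the members, 335 (37.1%) rested on 1 of the genes, 359 on 2 and 209 (23.1%) on 3 or more. Sema3g was the sole gene in 211 (23.4%), Col8a1 in 74 (8.19%), and both, with or without further genes of the rule, had a UMI in 182 (20.2%). Many calls rested on few UMIs: 433 members (48.0%) sat at the threshold of 2 UMIs, 470 (52.0%) had 3 or more and 180 (19.9%) had 5 or more.

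The order of the genes was alike in the libraries at the top and varied below it. Sema3g was found in 75.3%, 62.2% and 71.2% of the untreated, sham and denervated members, and Col8a1 in 40.1%, 43.2% and 28.8%. Hey1 was found in 23.0%, 9.58% and 21.2%, so the sham library had the lowest share of this Notch target. As UMIs per 1000000 UMIs of the class (CPM; the 22 genes of the rule were left out of every total), Sema3g stood at 1970, 1190 and 2420, Col8a1 at 1030, 867 and 724, and Gja5 at 161, 103 and 192. In the nuclei just outside the threshold, with a sum of 1, Sema3g stood at 835, 618 and 1090 CPM and Col8a1 at 113, 177 and 163.

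**Figure D1:**
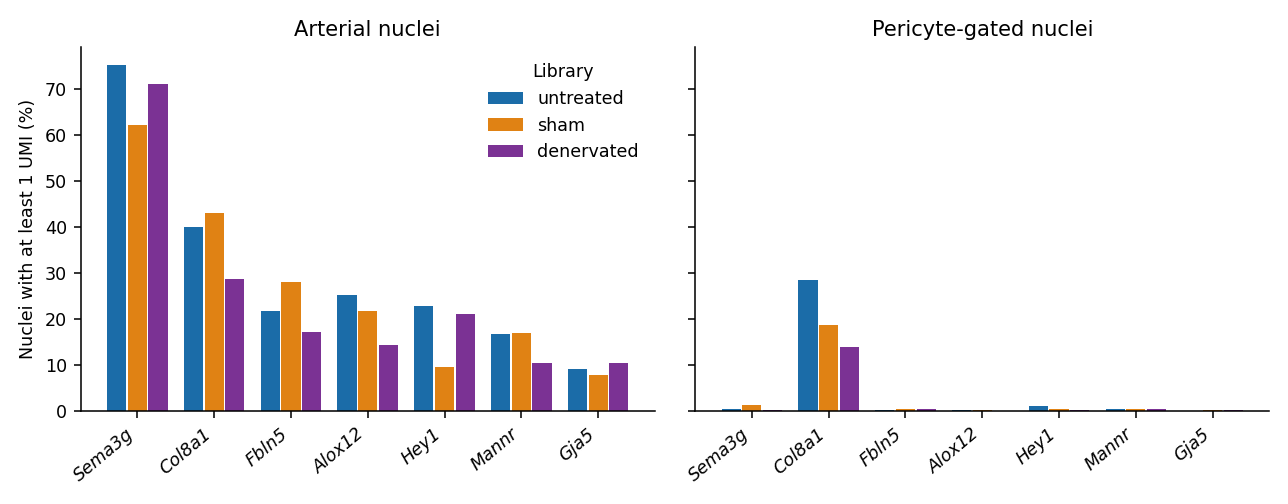
Percent of nuclei with at least 1 UMI (vertical axis) of each of the 7 genes of the rule, by library, in the arterial members and in nuclei of the pericyte gate. Sema3g leads in the members of each library and stays at 1.33% or below in pericyte-gated nuclei, where Col8a1 is the gene found most, in 28.5%, 18.8% and 14.1%.

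The rule was compared with nuclei that should lack arterial transcripts. A sum of at least 2 was reached by 0.388% (untreated), 0.666% (sham) and 0.185% (denervated) of the nuclei gated as adipocytes, at higher median depths of 1831.5, 1412 and 943 UMIs. Among nuclei gated as pericytes the shares were 13.1%, 7.08% and 4.64%, at 801, 757 and 397.5 UMIs. Col8a1 gave 271 of the 290, 439 of the 490 and 100 of the 110 arterial-gene UMIs in those pericyte-gated nuclei, so this gene was frequent in mural nuclei too. The gate of 2 times the pericyte sum limits doublets of an EC and a pericyte, and how many members admitted through Col8a1 are such pairs was not tested.

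Arterial nuclei made up 8.40% of the endothelial nuclei in the untreated library (95% Clopper-Pearson interval 7.62 to 9.23), 8.33% in the sham library (7.57 to 9.14) and 5.85% in the denervated library (4.8 to 7.04). These intervals, like all others given here, cover counting error only, and 1 library per treatment allows no test between treatments. The denervated share was lowest, and so was the depth, with a median of 503.5 UMIs per member against 851 in the untreated and 791 in the sham library. With each nucleus thinned to 400 UMIs, which left out 845, 1158 and 862 shallower endothelial nuclei, the shares were 4.47% (3.80 to 5.23), 3.89% (3.24 to 4.63) and 4.68% (3.30 to 6.42). After thinning, which also changed the nuclei counted and left 36 denervated members of 769 nuclei, the denervated share was no longer the lowest, and the 3 intervals overlapped. Of the barcodes, 251 to 278 were shared by any pair of libraries (at most 1.85% of a library), and 0 members were.

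To find which further genes mark these nuclei, the UMIs of the members and of the reference were summed per library and compared over the 3 libraries as pairs, with edgeR's quasi-likelihood test and Benjamini-Hochberg adjustment over all 7393 genes at 20 CPM or more. The 22 rule genes were not tested. Members were deeper than the reference, at 851, 791 and 503.5 against 689.5, 546.5 and 394 median UMIs, with mitochondrial shares of 9.69%, 13.6% and 6.35% against 10%, 13.5% and 5.65%. The p-values measure the spread between 3 libraries that also differ in treatment. Whether the sums of the classes overlapped is given for named genes as a description only, since these genes were named from the calls or the lists. How often sums did not overlap over all genes tested was not counted.

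Arterial nuclei had higher levels of 241 genes (3.26% of those tested) and lower levels of 156 (2.11%) at an adjusted p below 0.05, and the direction was the same in all 3 libraries for 228 and 151 of them. Other arterial genes were listed beside the rule with earlier results of these data known. Of these 24, 22 were tested, 18 were higher and 1 was lower, with a median log2 difference of 1.36 against 0.0072 over all genes tested. Some, Stmn2, Edn1, Gja4, Vegfc and Alpl among them, reached the 20 CPM filter only through the members, so their calls add no support for the list. Capillary genes went the other way, with 8 of 17 lower and 1 higher and a median of -0.31. Of 13 venous genes 3 were lower and 0 higher, with a median of -0.28. Without the untreated library the counts were 21 higher and 2 lower, and each of the 395 called genes still tested kept its sign. That fit reuses the sums of the other libraries, so kept signs are not an independent check.

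**Figure D2:**
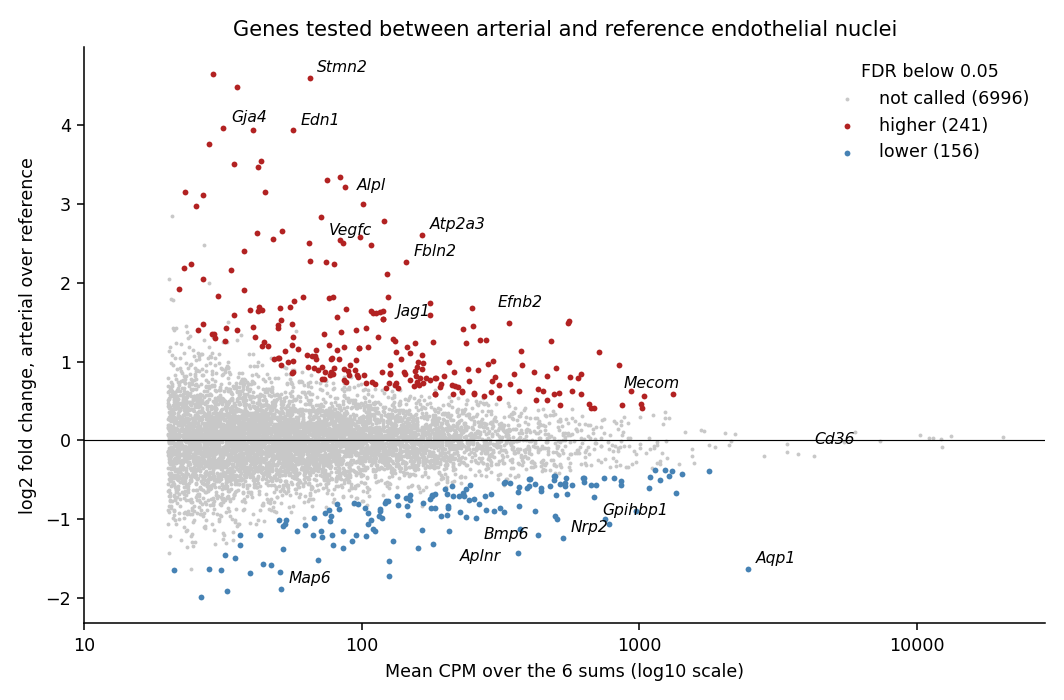
Log2 difference between arterial and other endothelial nuclei (vertical axis) against the mean CPM over the 6 sums (horizontal axis, log scale), 1 point per tested gene. Red points are the 241 genes called higher, blue points the 156 called lower and grey points the genes not called. Stmn2 stands at a log2 difference of 4.60 and Aqp1 at -1.63.

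Among genes with a mean of at least 50 CPM, the largest difference was that of Stmn2 (chr3:8509360-8561606, plus strand), which encodes stathmin-2, a microtubule-binding protein best known from neurons. It stood at 120, 108 and 148 CPM in the untreated, sham and denervated members and at 1.86, 9.19 and 1.40 CPM in the reference. Every member sum lay above every reference sum, and the fitted log2 difference was 4.60 ± 0.41 (SE, n = 3 library pairs, edgeR adjusted p = 9.1e-09). Each SE given here is the size of the fitted difference over the square root of the test's F statistic, whose spread is shared over genes. It is not the spread of the 3 pair ratios, which can be wider. The reference held 5, 23 and 1 UMIs of Stmn2, and in the sham pair, which had the most, the log2 ratio was 3.55 (95% counting interval 2.79 to 4.35), below the fitted value.

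The vasoconstrictor peptide endothelin-1, encoded by Edn1 (chr13:42301476-42307990, plus strand), stood at 102, 100 and 118 CPM against 3.72, 10.8 and 4.21. The groups did not overlap, and Edn1 was higher by a fitted 15.3-fold (log2 3.93 ± 0.37, n = 3, edgeR adjusted p = 2.0e-08). Gja4 (chr4:127311421-127314039, minus strand) encodes connexin 37, the partner of connexin 40 in arterial gap junctions. It stood at 76.0, 30.8 and 73.9 CPM against 2.23, 5.19 and 1.40, so the sham members were lowest but still above each reference sum (log2 3.96 ± 0.59, n = 3, edgeR adjusted p = 3.4e-05). Without the untreated library its log2 difference was 3.24 with an edgeR adjusted p of 0.33, while Stmn2 and Edn1 kept their calls (adjusted p = 0.017 each). Pericyte-gated nuclei also held Gja4, at 89.0, 76.1 and 43.0 CPM.

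Vegfc (chr8:54077606-54187096, plus strand) encodes a growth factor for VEGFR3, a receptor of lymphatic and sprouting ECs. Its levels were 143, 100 and 133 CPM in the members and 10.4, 26.0 and 14.0 in the reference, with no overlap and a log2 difference of 2.83 ± 0.31 (n = 3, edgeR adjusted p = 2.8e-07). Vegfc was also found in pericyte-gated nuclei, at 191, 90.2 and 85.9 CPM, and with nuclei holding at least 2 UMIs of marker lists of other non-adipocyte cell types left out its log2 difference was 3.02. Alpl, tissue-nonspecific alkaline phosphatase, stood at 161, 177 and 133 CPM against 9.68, 28.0 and 14.0, again without overlap (log2 3.22 ± 0.27, n = 3, edgeR adjusted p = 7.3e-09).

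The next of the 10 largest differences at this level included Apba1, an adaptor of presynaptic proteins, at log2 3.34 ± 0.32, Nebl, an actin-binding nebulette, at 3.31 ± 0.33, Eps8l2, an actin regulator, at 3.0 ± 0.28, and Sorbs2, an adaptor of actin and focal adhesions, at 2.79 ± 0.29. Pcsk5, a proprotein convertase, was higher by log2 2.65 ± 0.36, and Atp2a3, a calcium pump of the endoplasmic reticulum, by 2.61 ± 0.20. Atp2a3 was the most abundant of these 6, at 272, 249 and 325 CPM in the members and 33.1, 49.5 and 60.4 in the reference. In each of the 6 genes every member sum exceeded every reference sum. Clu, an extracellular chaperone, was higher by log2 2.51 ± 0.31, at 55.5, 71.8 and 310 CPM against 4.84, 18.8 and 52.0, with its highest level in the denervated members.

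Among the arterial genes, the ephrin-B2 gene Efnb2 (chr8:8617434-8661242, minus strand) stood at 637, 369 and 517 CPM in the members and 190, 169 and 157 in the reference. The sums did not overlap, and the difference was log2 1.49 ± 0.16 (n = 3, edgeR adjusted p = 1.1e-07). Sox17, a transcription factor of arterial identity, stood at 324, 272 and 192 CPM against 71.1, 124 and 74.4, likewise without overlap (log2 1.59 ± 0.20, n = 3, edgeR adjusted p = 2.3e-06). Mecom, whose gene borders that of Mannr, stood at 1480, 870 and 990 CPM against 535, 530 and 671 (log2 0.96 ± 0.14, n = 3, edgeR adjusted p = 1.4e-05). The Mecom sums did not overlap, although the reference held this gene at more than 500 CPM in each library.

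The chemokine gene Cxcl12 stood at 868, 572 and 872 CPM in the members and 337, 534 and 435 in the reference. All member sums were above the reference, narrowly in the sham library (log2 0.79 ± 0.16, n = 3, edgeR adjusted p = 2.2e-03), and Cxcl12 in pericyte-gated nuclei was 966, 1160 and 391 CPM. Its receptor gene Cxcr4 stood at 120, 33.3 and 222 CPM against 32.8, 12.0 and 52.0. Here the sham members overlapped with the denervated reference, while each library showed the same direction (log2 1.82 ± 0.27, n = 3, edgeR adjusted p = 3.4e-05). Tm4sf1, a membrane protein of EC filopodia, was higher by log2 1.51 ± 0.13 and Unc5b, a netrin receptor of arterial and tip ECs, by 1.24 ± 0.20. The 1 listed arterial gene that was lower was Nrp1, a co-receptor of VEGF, at 1310, 1170 and 1150 CPM against 1760, 1450 and 1690 (log2 -0.42 ± 0.10, n = 3, edgeR adjusted p = 7.4e-03). Its member sums lay below every reference sum.

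**Figure D3:**
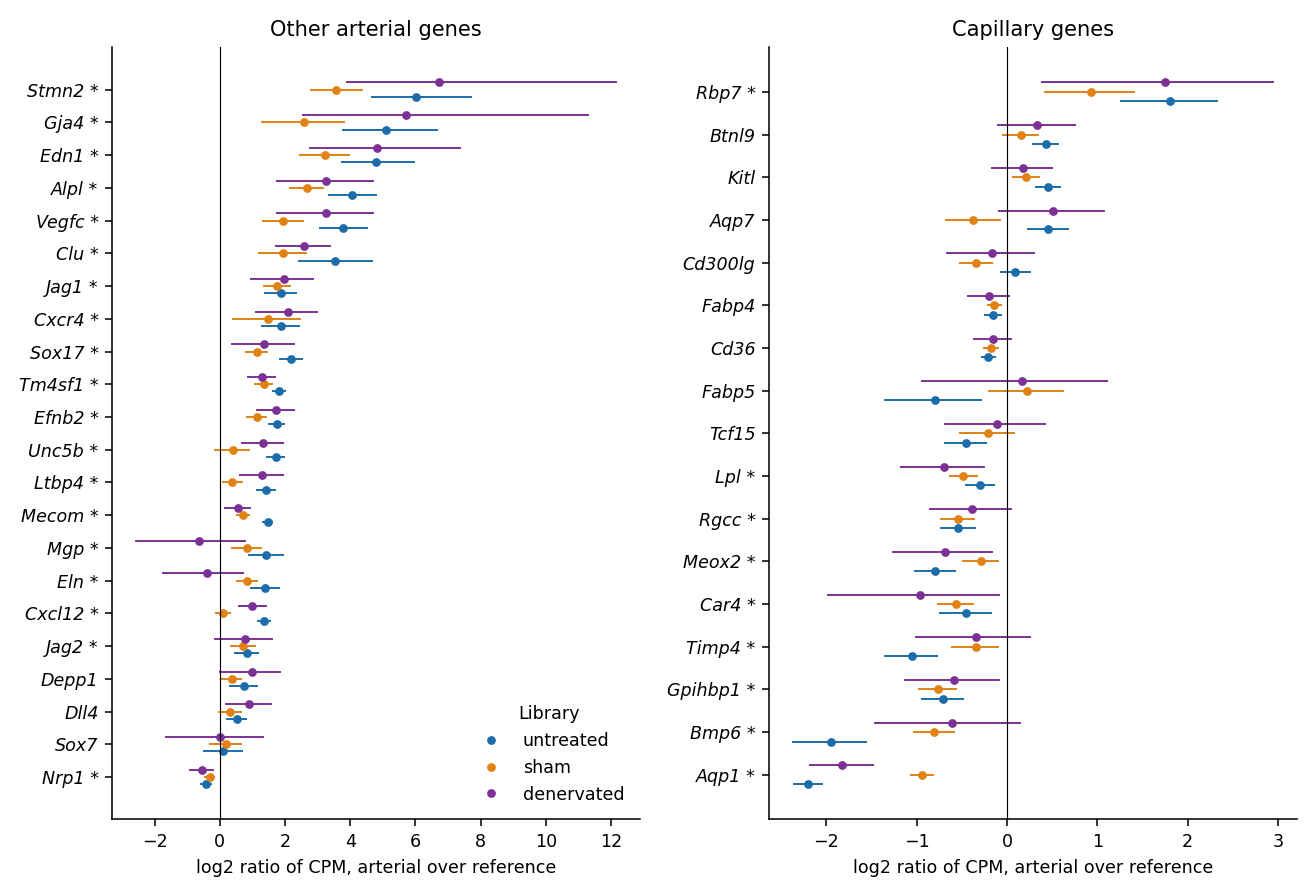
Log2 ratio of CPM, arterial over other endothelial nuclei (horizontal axis), in each library with its 95% counting interval, for the 22 tested arterial genes beside the rule and the 17 capillary genes; an asterisk marks genes called by edgeR. Most arterial genes, such as Stmn2, Edn1 and Efnb2, lie to the right of 0 in every library, and Aqp1 lies furthest to the left among the capillary genes.

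Notch ligands and receptors pass signals between neighbouring ECs, and 3 of 18 tested Notch genes were higher and 0 lower, with a list median of 0.11. Jag1, a ligand, stood at 169, 210 and 207 CPM in the members and 46.2, 61.9 and 53.4 in the reference, with no overlap (log2 1.82 ± 0.20, n = 3, edgeR adjusted p = 2.3e-07). The ligand Jag2 was higher by 0.77 ± 0.17 and the receptor Notch1 by 0.87 ± 0.15 on the log2 scale. Notch1 stood at 701, 303 and 650 CPM against 350, 210 and 282, so the sham members overlapped with the untreated reference although each pair pointed the same way.

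Dll4, the Notch ligand of arterial and tip ECs, did not pass the test: it stood at 359, 233 and 340 CPM in the members and 252, 186 and 181 in the reference, and the groups overlapped (log2 0.50 ± 0.16, n = 3, edgeR adjusted p = 0.068). The target gene Hes1 stood at 184, 139 and 251 CPM against 178, 135 and 208 and did not pass either (edgeR adjusted p = 0.92). Of 5 ephrin-related genes tested, Efnb2 and the receptor Epha4 (log2 1.54 ± 0.24) were higher. Ephb4, the venous receptor of ephrin-B2, stood at 310, 231 and 547 CPM against 317, 226 and 310 and did not pass (edgeR adjusted p = 0.75).

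For 4 of the genes above that were called higher in the arterial nuclei, the 250 bases before the RefSeq start on GRCm38.p6 are shown 5′ to 3′ in the direction of transcription, to let the promoters of a ligand (Jag1), its receptor (Notch1), the ephrin ligand (Efnb2) and a chemokine (Cxcl12) be compared. Capitals mark the letters TGGGAA, the core bound by the Notch partner RBPJ, GGGCGG, a GC box, and AACAAT, a SOX core, on either strand. The regions are chr2:137116521-137116770 for Jag1, chr2:26503823-26504072 for Notch1 and chr8:8661243-8661492 for Efnb2, all on the minus strand, and chr6:117168285-117168534 for Cxcl12 on the plus strand.
Jag1: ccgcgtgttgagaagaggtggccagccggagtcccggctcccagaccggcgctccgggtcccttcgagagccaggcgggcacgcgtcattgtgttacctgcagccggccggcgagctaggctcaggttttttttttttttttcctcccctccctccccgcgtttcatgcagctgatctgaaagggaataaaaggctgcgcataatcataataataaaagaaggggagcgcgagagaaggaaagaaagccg
Notch1: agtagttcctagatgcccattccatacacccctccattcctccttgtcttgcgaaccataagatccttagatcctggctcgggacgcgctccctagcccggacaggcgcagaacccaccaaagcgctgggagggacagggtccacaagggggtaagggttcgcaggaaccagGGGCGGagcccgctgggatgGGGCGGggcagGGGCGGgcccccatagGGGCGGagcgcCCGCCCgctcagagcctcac
Efnb2: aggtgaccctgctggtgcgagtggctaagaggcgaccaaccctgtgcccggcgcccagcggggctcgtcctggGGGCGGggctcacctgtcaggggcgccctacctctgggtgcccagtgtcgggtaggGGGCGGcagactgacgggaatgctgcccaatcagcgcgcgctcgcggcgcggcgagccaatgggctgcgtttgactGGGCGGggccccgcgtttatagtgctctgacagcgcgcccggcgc
Cxcl12: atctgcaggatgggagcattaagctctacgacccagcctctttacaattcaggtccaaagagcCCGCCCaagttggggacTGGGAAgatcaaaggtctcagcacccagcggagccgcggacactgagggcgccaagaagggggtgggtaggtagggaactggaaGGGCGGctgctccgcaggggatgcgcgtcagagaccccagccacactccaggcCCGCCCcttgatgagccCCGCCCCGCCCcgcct

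The Cxcl12 window held TGGGAA 1 time, 170 bases before the start, and 5 GC boxes, Notch1 held 5 GC boxes and Efnb2 3, and Jag1 held none of the 3 motifs. Of the 18 listed arterial genes called higher, 13 matched the RefSeq table by symbol. Over all genes the shares of promoters with each motif were 21.6% for TGGGAA, 32.7% for GGGCGG and 9.42% for AACAAT, of 32851 promoters of the same length. Among genes called higher they were 19.0%, 57.4% and 3.42%, among genes called lower 23.6%, 54.3% and 6.43%, and among all genes tested 19.5%, 60.8% and 5.23%. The letters of the RBPJ and SOX cores were thus not more frequent before the genes higher in arterial nuclei than before the genes tested, and a match is a string in a window, not a bound site.

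Elastic fibres are the recoil element of the arterial wall, and 4 of the 6 tested genes of the 16 listed for them were higher and 0 lower, with a median of 0.92. Fbln2, encoding fibulin-2, stood at 324, 274 and 88.6 CPM in the members and 31.6, 75.9 and 71.6 in the reference. The denervated members stood far below the other members and just above the reference (log2 2.26 ± 0.27, n = 3, edgeR adjusted p = 8.7e-07). Fbn1, encoding the microfibril protein fibrillin-1, stood at 96.4, 133 and 118 CPM against 19.0, 43.5 and 46.3 without overlap (log2 1.81 ± 0.25, n = 3, edgeR adjusted p = 1.1e-05).

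Ltbp4, a latent TGF-beta binding protein of elastic fibres, was higher by log2 0.97 ± 0.18. Eln, which encodes elastin itself, stood at 175, 290 and 103 CPM against 66.6, 163 and 135, so the groups overlapped and the denervated pair pointed the other way (log2 0.88 ± 0.21, n = 3, edgeR adjusted p = 7.4e-03). Its adjusted p was 0.18 when membership was set without Fbln5 and Col8a1, and 0.22 with the reference matched on depth. Mgp, an inhibitor of calcification in the vessel wall, likewise pointed the other way in the denervated pair, at 123, 136 and 59.1 CPM against 45.8, 76.7 and 92.7 (log2 0.88 ± 0.24, n = 3, edgeR adjusted p = 0.025). With depth matched its log2 difference was 0.39 with an adjusted p of 0.58, and without Fbln5 and Col8a1 the adjusted p was 0.094. Pericyte-gated nuclei held Mgp at 1650, 1570 and 1200 CPM.

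Of 13 tested basement membrane genes 1 was higher and 3 were lower, with a median of -0.26. Col15a1, a collagen of capillary basement membranes, was lower, at 14.6, 15.4 and 118 CPM against 31.6, 47.5 and 286 (log2 -1.36 ± 0.31, n = 3, edgeR adjusted p = 6.2e-03), where the groups overlapped and both classes were highest in the denervated library. Col18a1 was higher (log2 1.92 ± 0.51), Hspg2, which encodes perlecan, was lower (-0.48 ± 0.13), and so was the laminin chain gene Lama4 (-0.54 ± 0.15). Col18a1 too reached the mean of 20 CPM only through the members, so its call adds no support for the list. Col4a1 did not pass the test (log2 -0.29 ± 0.10, edgeR adjusted p = 0.11).

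Of 9 tested genes of vascular tone, 3 were higher and 1 lower. Beside Edn1 these were Ace, angiotensin-converting enzyme, at 114, 141 and 59.1 CPM against 11.9, 25.2 and 36.5 (log2 2.50 ± 0.30, n = 3, edgeR adjusted p = 1.1e-06), with no overlap, and S1pr1, a receptor of sphingosine-1-phosphate (log2 0.72 ± 0.16). The level of Ace in the denervated members came from 4 UMIs. Ednrb, the endothelin receptor of ECs, was lower, at 58.4, 94.9 and 44.3 CPM against 194, 141 and 124 without overlap (log2 -1.13 ± 0.24, n = 3, edgeR adjusted p = 2.8e-03). The peptide gene Edn1 and the receptor gene Ednrb thus differed in opposite directions in each library. Nos3, endothelial nitric oxide synthase, stood at 158, 156 and 163 CPM against 198, 209 and 163 and did not pass (edgeR adjusted p = 0.42). Of 6 tested genes linked to blood flow 0 passed, Klf2 at log2 0.34 ± 0.15 and Klf4 at 0.38 ± 0.14 included (edgeR adjusted p = 0.26 and 0.13).

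Of 19 tested transcription factor genes of endothelium, 5 were higher and 2 lower. Beside Sox17 and Mecom these were Prdm16, a zinc finger factor related to Mecom and also known from brown fat, at 313, 172 and 148 CPM against 118, 63.9 and 119 (log2 1.24 ± 0.19, n = 3, edgeR adjusted p = 7.2e-05), Sox13 at log2 1.18 ± 0.19 and Gata2 at 0.82 ± 0.21. The Prdm16 sums of members all lay above those of the reference. The homeobox gene Meox2, of capillary ECs in fat and muscle, was lower, at 517, 636 and 458 CPM against 896, 776 and 736 (log2 -0.57 ± 0.13, n = 3, edgeR adjusted p = 4.8e-03), and so was Fli1, an ETS factor, at -0.45 ± 0.10.

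In the BMP and TGF-beta pathway, whose ligands steer EC quiescence and mural cell coverage, 5 of 15 tested genes were higher and 2 lower, with a median of 0.56. The ligand gene Tgfb2 stood at 114, 61.6 and 59.1 CPM against 3.72, 7.99 and 14.0 without overlap (log2 3.55 ± 0.43, n = 3, edgeR adjusted p = 1.1e-06). Tgfb2 reached the mean of 20 CPM needed for the test only through the members, so its call adds no support for the list. The receptor genes Tgfbr2 (log2 0.81 ± 0.16) and Acvrl1 (0.80 ± 0.18) and the target genes Id1 (0.87 ± 0.19) and Id3 (0.70 ± 0.16) were higher. Tgfbr2 had a log2 difference of -0.13 when nuclei with at least 2 UMIs of any other cell type were left out, a setting that kept 52, 191 and 24 members. The ligand gene Bmp6 was lower, at 158, 462 and 222 CPM against 609, 806 and 337, where the sham members overlapped with the denervated reference (log2 -1.20 ± 0.18, n = 3, edgeR adjusted p = 3.0e-05). The co-receptor gene Tgfbr3 was lower as well (log2 -0.68 ± 0.13).

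Of 10 tested genes of VEGF, TIE and PDGF signalling, 2 were higher (Vegfc and Pdgfd) and 3 lower (Nrp1, Nrp2 and Tie1). Pdgfd, a ligand of the PDGF receptor of mural cells, stood at 672, 349 and 547 CPM against 254, 204 and 222, above every reference sum (log2 1.14 ± 0.15, n = 3, edgeR adjusted p = 5.9e-06). The rule genes Kdr and Flt1, receptors of VEGF, give a description only: Kdr stood at 2290, 1240 and 1460 CPM in the members and 3230, 1840 and 2510 in the reference, and Flt1 at 4040, 3070 and 3770 against 3450, 3010 and 3500. Kdr was thus lower and Flt1 slightly higher in the members of each library. Of 13 axon guidance genes, Sema7a (log2 1.25 ± 0.20) and Unc5b were higher, and Plxna2 (-0.53 ± 0.15), Sema6a (-0.38 ± 0.10), Nrp1 and Nrp2 were lower. With depth matched Plxna2 was at -0.32 and Sema6a at -0.19 (edgeR adjusted p = 0.44 and 0.61), and both also lost their calls with DESeq2, without Fbln5 and Col8a1, and with other non-adipocyte cell types left out.

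Of 17 tested genes of the capillary bed 8 were lower, 1 was higher and 8 were not called. The lowest was the water channel gene Aqp1 (chr6:55336432-55348555, plus strand). It stood at 990, 1550 and 1050 CPM in the members and 4550, 2960 and 3710 in the reference, with no overlap and the smallest gap in the sham library (log2 -1.63 ± 0.14, n = 3, edgeR adjusted p = 7.4e-09). Gpihbp1, which carries lipoprotein lipase across capillary ECs, stood at 529, 546 and 502 CPM against 864, 931 and 755, without overlap (log2 -0.72 ± 0.12, n = 3, edgeR adjusted p = 1.7e-04). Also lower were Timp4 (log2 -0.64 ± 0.15), Car4 (-0.57 ± 0.14), Rgcc (-0.52 ± 0.11) and Lpl (-0.46 ± 0.11).

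The most abundant genes of fatty acid uptake did not pass. Cd36 stood at 4790, 3950 and 3210 CPM against 5520, 4470 and 3570 (log2 -0.19 ± 0.08, n = 3, edgeR adjusted p = 0.17), and Fabp4 at 3370, 4650 and 2500 against 3760, 5120 and 2870 (log2 -0.17 ± 0.08, n = 3, edgeR adjusted p = 0.28). The groups overlapped, although both genes were lower in the members of each library. Rbp7, a retinol-binding protein of fat capillaries, was the 1 capillary gene that was higher, at 131, 121 and 118 CPM against 37.6, 63.5 and 35.1 (log2 1.38 ± 0.24, n = 3, edgeR adjusted p = 2.5e-04), with no overlap.

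Of the venous genes, Nrp2, a neuropilin of veins and lymphatics, stood at 248, 323 and 384 CPM against 773, 599 and 844 without overlap (log2 -1.24 ± 0.15, n = 3, edgeR adjusted p = 1.1e-06). The apelin receptor gene Aplnr (log2 -1.43 ± 0.18) and the interleukin-1 receptor gene Il1r1 (-1.21 ± 0.30) were lower too. Vwf, encoding von Willebrand factor, stood at 49.7, 51.3 and 0 CPM against 10.4, 33.5 and 43.5 and did not pass (edgeR adjusted p = 0.28). At a mean of at least 50 CPM, the lowest values outside the lists were those of Map6, a microtubule stabiliser (log2 -1.88 ± 0.35), Hbb-bs, a globin gene of red cells (-1.73 ± 0.31), Cxcl9, an interferon-induced chemokine (-1.67 ± 0.32), Tmtc2 (-1.52 ± 0.27), Pawr (-1.51 ± 0.28), Dennd4a (-1.37 ± 0.32) and Trp53i11 (-1.37 ± 0.23).

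Genes of cell state are given beside the shares over all genes tested, of which 3.26% were called higher and 2.11% lower. Of 10 tested interferon-induced genes Rsad2 was lower (log2 -0.50 ± 0.13) and 0 were higher, while the list median was 0.42 and 7 were above 0. Of 8 heat shock genes Hspa1a was lower (-0.56 ± 0.13, list median -0.16), and of 12 immediate early genes 0 passed in either direction by edgeR, with a median of 0.11. Of the 3 gap junction genes tested only Gja4 passed.

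The study's ligands and receptors between BAs and ECs gave mixed values. Kitl, the ligand of KIT, stood at 1610, 1240 and 1230 CPM in the members and 1180, 1070 and 1090 in the reference. Every member sum lay above every reference sum, yet the difference did not pass (log2 0.28 ± 0.10, n = 3, edgeR adjusted p = 0.13). Kit itself (log2 -1.31 ± 0.42, edgeR adjusted p = 0.070), Dag1 (0.43 ± 0.18, 0.24), Bmpr2 (0.45 ± 0.16, 0.10) and Efnb1 (0.12 ± 0.18, 0.86) did not pass, and among the 10 tested Efnb2 was higher while Bmp6 and Hspg2 were lower.

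Markers of mural cells moved with the arterial class. Rgs5, a pericyte gene, stood at 739, 952 and 1260 CPM in the members, 369, 405 and 569 in the reference and 5810, 5640 and 2680 in pericyte-gated nuclei (log2 1.12 ± 0.12, n = 3, edgeR adjusted p = 1.2e-07). The smooth muscle genes Mylk (log2 0.82 ± 0.17) and Myh11 (2.24 ± 0.57) were higher as well, 2 of the 3 tested of 10 listed. Myh11 reached the mean of 20 CPM needed for the test only through the members, so its call adds no support for the list. Myh11 stood at 26.3, 38.5 and 59.1 CPM in the members against 232, 365 and 181 in pericyte-gated nuclei.

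The summed list of other pericyte markers stood at 777, 1180 and 1300 CPM against 402, 570 and 635 in the reference, and the 4 pericyte genes of the gate at 149, 434 and 148 against 86.0, 267 and 107, where pericyte-gated nuclei held 10100, 9260 and 10600. With membership set without Fbln5 and Col8a1, Rgs5 kept a log2 difference of 1.21. With nuclei holding at least 2 UMIs of other non-adipocyte lists left out, which include Rgs5 itself, it was 0.061 with an edgeR adjusted p of 0.97, while Stmn2 (4.76), Edn1 (3.90), Gja4 (4.27), Mgp (1.18) and Cxcl12 (0.75) kept their calls and 207 genes were higher and 147 lower. In the same setting Mylk had a log2 difference of 0.43 with an edgeR adjusted p of 0.54, and Myh11 and Col18a1 were too low to be tested. The lists left out hold Mylk and Myh11 too, so lower values of both were built into this setting. Of the other cell types, the 10 tested adipocyte markers and 3 fibroblast markers gave 0 calls in either direction, and the 6 lymphatic markers summed to 17.5, 12.8 and 0 CPM in the members against 15.6, 20 and 26.7 in the reference, the 0 coming from the smallest and shallowest class.

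Some calls named above ended under other settings. With the reference matched on depth these were, beside Eln, Mgp, Plxna2 and Sema6a, the calls of Col18a1, Fli1, Hspa1a, Lama4, Nrp1, Rgcc, Rsad2 and Tie1. DESeq2 called none of these except Rgcc, and also missed Acvrl1, Car4, Col15a1, Cxcl9, Dennd4a, Ednrb, Fbln2, Gata2, Hbb-bs, Hspg2, Id1, Id3, Il1r1, Jag2, Lpl, Meox2 and Timp4. With membership set without Fbln5 and Col8a1, Car4, Col15a1, Dennd4a, Lpl, Nrp1, Tie1 and Timp4 did not pass. Their signs stayed as given in each of these settings. With a sum of at least 3, Acvrl1, Dennd4a, Ednrb, Plxna2 and S1pr1 did not pass, and without the denervated library Lama4 did not. Without the sham library Car4, Col15a1, Eln, Id1, Jag2, Lpl, Mgp, Plxna2, Rsad2 and Sema6a did not pass and Col18a1 was not tested. Without the untreated library, of the genes named above as called, Alpl, Apba1, Aqp1, Atp2a3, Clu, Edn1, Efnb2, Eps8l2, Jag1, Nebl, Nrp2, Rgs5, Sorbs2, Stmn2 and Tm4sf1 still passed.

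The size of the largest differences changed with the library left out. Between the fits without the untreated and without the sham library, the log2 difference went from 3.99 to 6.06 for Stmn2, 3.48 to 4.73 for Edn1, 3.24 to 5.12 for Gja4, 2.21 to 3.58 for Vegfc, 2.52 to 3.92 for Apba1, 2.31 to 3.84 for Eps8l2 and 1.84 to 3.43 for Myh11. Among the lower genes it went from -1.34 to -3.09 for Map6, -0.84 (adjusted p = 0.72) to -3.0 for Hbb-bs, -1.17 to -2.65 for Cxcl9, -1.1 to -2.42 for Tmtc2 and -1.04 to -2.21 for Trp53i11. Without the untreated library Epha4 (0.87), Fbln2 (1.5), Nebl (2.56), Sorbs2 (2.04) and Tgfb2 (2.64) were also lower by more than 1.5-fold than in the fit of all 3.

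The lists also followed the number of arterial UMIs per nucleus. Summed over the list, the other arterial genes stood in the untreated library at 4370 CPM with an arterial sum of 0, 5810 at 1, 7300 at 2, 8660 at 3 to 4 and 11000 at 5 or more. In the sham library they went from 4360 to 8630 CPM, higher at each step, and in the denervated library they stood at 4600, 5740, 6270, 10100 and 8040, the last from 11 nuclei. The capillary genes were lower at every step in each library, from 24300 to 13800 CPM in the untreated, 22500 to 13400 in the sham and 18000 to 10800 in the denervated library. The pericyte list went from 402 to 1180, 570 to 2150 and 635 to 2590 CPM between both ends. These steps are a description, since the sum is the measure that made the rule.

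**Figure D4:**
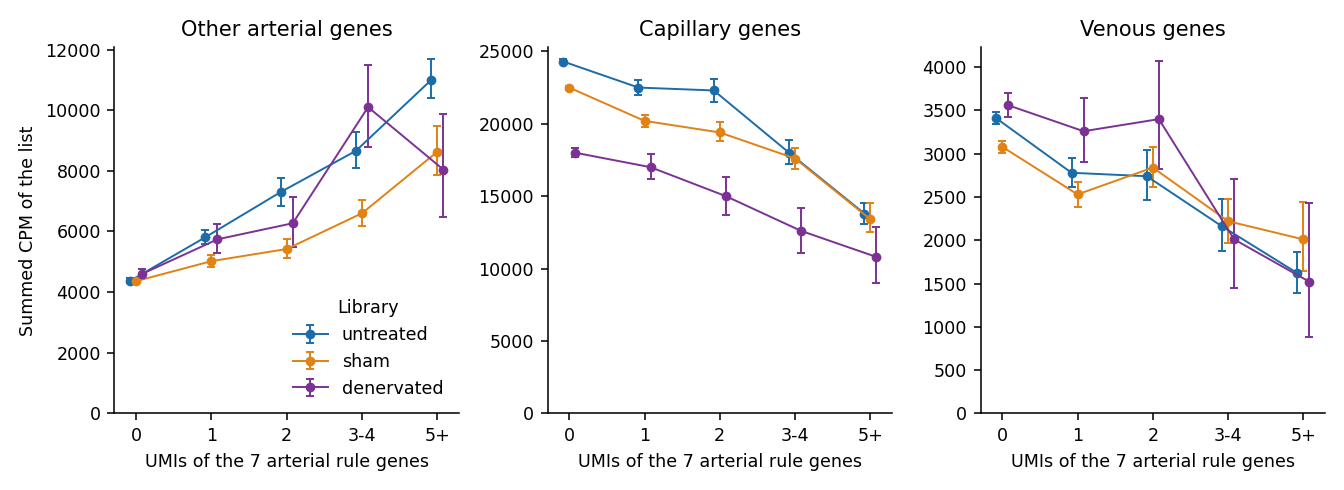
Summed CPM of the other arterial, capillary and venous lists (vertical axes) over the UMIs of the 7 arterial genes per nucleus (0, 1, 2, 3 to 4, 5 or more; horizontal axis), by library, with 95% Poisson intervals. The arterial list reaches 11000 CPM in the untreated library, and the capillary list is lower at each step in each library.

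The nuclei that entered through Sema3g alone (102, 76 and 33) stood closer to the reference by the capillary and arterial lists. By the pericyte list they stood above it, at 587, 1380 and 1090 CPM against 402, 570 and 635. Their capillary sum was 24000, 22200 and 14500 CPM, next to 24300, 22500 and 18000 in the reference, and their arterial sum was 6690, 4700 and 5860 against 4370, 4360 and 4600. Nuclei admitted through Col8a1 alone (25, 41 and 8) held 17800, 16800 and 16100 CPM of capillary genes and 7530, 4880 and 9750 of arterial genes. The summed members thus stood above the reference in the other arterial list. That list was written with earlier results of these data known, so it does not test the label arterial. The 211 nuclei with Sema3g as their sole gene kept nearly the capillary level of the reference in 2 of the libraries.

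To set arterial against venous ECs, members without UMIs of Vwf, Nr2f2, Ackr1, Selp, Vcam1 and Lrg1 (358, 356 and 90 nuclei) were compared with endothelial nuclei that held at least 2 of these UMIs and no arterial UMI (75, 142 and 33 nuclei). The genes of both gates were left out. Arterial nuclei were higher in 74 genes (1.0% of 7393 tested) and lower in 79 (1.07%). Without the denervated library the counts were 6 and 17, without the untreated library 19 and 29 and without the sham library 54 and 50, so the number of calls rested on each library. Of 22 arterial genes 10 were higher and 1 lower, and of 10 venous genes 5 were lower and 0 higher.

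Efnb2 stood at 610, 402 and 552 CPM in the arterial class and 95.8, 82.4 and 0 in the venous-marked class, apart in every library (log2 2.77 ± 0.35, n = 3, edgeR adjusted p = 2.7e-12). Dll4, which had not passed against all other ECs, stood at 379, 237 and 343 CPM against 109, 105 and 67.0 and did here, without overlap (log2 1.63 ± 0.36, n = 3, edgeR adjusted p = 4.9e-04). Whether its difference was larger against venous-marked nuclei than against the reference was not tested, since members without venous-gate UMIs enter both comparisons. Notch1 (log2 1.28 ± 0.28), Notch4 (1.40 ± 0.37), Jag1 (1.61 ± 0.43) and Hes1 (1.5 ± 0.42) were higher too. Hes1 stood at 178, 143 and 305 CPM against 54.7, 89.8 and 0. With depth matched, Notch4 (edgeR adjusted p = 0.19), Jag1 (0.067) and Hes1 (log2 0.92, adjusted p = 0.997) lost their calls, as did Icam1, Epha4, Mecom, Tgfb2 and Tm4sf1. DESeq2 called none of Dll4 (adjusted p = 0.18), Notch1 (0.15), Notch4 (0.51), Jag1 (0.55), Hes1 (0.59), Sox17 (0.26) and Prdm16 (0.13). Without the untreated library Dll4 (edgeR adjusted p = 0.134), Notch1 (0.123) and Sox17 (0.108) did not pass. The same genes did not pass without the denervated library (edgeR adjusted p = 0.155, 0.113 and 0.123).

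Lfng, a glycosyltransferase that modifies Notch receptors, was lower, at 52.7, 43.6 and 57.1 CPM against 301, 120 and 770 (log2 -2.29 ± 0.38, n = 3, edgeR adjusted p = 5.4e-07). Its arterial sums lay below every venous-marked sum. Sema7a (log2 2.50 ± 0.45), Unc5b (2.54 ± 0.42), Prdm16 (2.17 ± 0.44), Pdgfd (1.75 ± 0.30), Btnl9 (1.73 ± 0.25) and Sox17 (1.66 ± 0.37) were higher. These 6 genes had no overlap between the classes, a description only, since they were named from the calls. Between the fits without the untreated and without the sham library, the log2 difference went from 1.94 to 7.89 for Sema7a and 2.27 to 3.34 for Unc5b. It went from 1.41 to 2.57 for Hes1, -1.89 to -2.68 for Eln and -1.75 to -2.76 for Icam1.

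Eln had the opposite sign to that against the reference. It stood at 122, 246 and 114 CPM in the arterial class and 602, 561 and 1570 in the venous-marked class, apart in each library (log2 -1.99 ± 0.26, n = 3, edgeR adjusted p = 2.2e-11). The reference of the first comparison holds the venous-marked nuclei too, and in ECs with UMIs of neither gate Eln stood at 44.6, 129 and 58.0 CPM, below the arterial class of each library. Of 6 tested fibroblast markers 0 were called by edgeR and 0 had a fitted difference above 0 (median -0.81), and of 9 elastic fibre genes 1 was above 0 (median -0.88, Eln alone called). The fibroblast list summed to 129, 224 and 267 CPM in the arterial and 491, 373 and 233 in the venous-marked class, against 2630, 2460 and 2490 in pericyte-gated nuclei. This sum was lower in the arterial class in the untreated and sham libraries and higher in the denervated library, there from 90 and 33 nuclei. The smooth muscle list summed to 376, 392 and 495 against 600, 455 and 866, and Tagln, an actin-binding protein of smooth muscle, was lower in the arterial class (log2 -2.27 ± 0.62, edgeR adjusted p = 0.015), a call that ended with depth matched (log2 -1.43, adjusted p = 0.69), with DESeq2 (0.28) and with any library left out (0.22 to 0.50). Pericyte-gated nuclei held Eln itself at 24.5, 48.7 and 33.4 CPM, and the part of other cell types in these differences was not tested.

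Plvap, the diaphragm protein of fenestrated and venous ECs, stood at 65.9, 49.8 and 19.0 CPM against 520, 651 and 1740 (log2 -3.65 ± 0.31, n = 3, edgeR adjusted p = 9.8e-29). Aqp1 stood at 900, 1500 and 1160 CPM against 5970, 3750 and 7100 (log2 -2.09 ± 0.19, n = 3, edgeR adjusted p = 9.5e-24), and Nrp2 at 234, 287 and 381 against 903, 696 and 904 (-1.44 ± 0.24, adjusted p = 8.0e-07). All 3 were lower in each library without overlap. Aplnr (log2 -2.0 ± 0.27), Col15a1 (-3.19 ± 0.48) and Icam1 (-1.78 ± 0.36) were lower too.

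Several of the largest differences rest on few UMIs in 1 class, so their fitted values depend on the prior count and are replaced here by ratios of single libraries. Ptgs1, cyclooxygenase-1, stood at 3.30, 6.23 and 0 CPM in arterial and 123, 180 and 536 in venous-marked nuclei, with a sham log2 ratio of -4.85 (interval -7.98 to -2.84) and an edgeR adjusted p of 4.2e-12. Pgm5, of cell adhesions, stood at 3.30, 12.5 and 0 CPM against 178, 135 and 335, with a sham ratio of -3.44 (-5.46 to -1.83). Stmn2 stood at 115, 115 and 171 CPM against 0, 7.49 and 0, with a sham ratio of 3.94 (1.38 to 9.29). For Eps8l2 the sham ratio was 5.11 (2.59 to 10.43), for Apba1 3.98 (1.42 to 9.32) and for Nebl 2.98 (1.03 to 6.08). Ctnnal1, Plekha7 and Bace2 were also among the 5 lowest and Lrrc3b among the 5 highest.

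Edn1, Gja4 and Vegfc, which were called higher against the reference, did not pass against venous-marked nuclei, at log2 1.22 ± 0.57, 2.31 ± 1.0 and 1.16 ± 0.48 (n = 3, edgeR adjusted p = 0.47, 0.36 and 0.31). Stmn2, Apba1, Nebl, Alpl, Eps8l2 and Atp2a3 were called higher by edgeR in both comparisons. Without the denervated library, Stmn2 (edgeR adjusted p = 0.074), Nebl (0.093), Alpl (0.077) and Atp2a3 (0.077) did not pass against venous-marked nuclei. Of all genes named as called there, only Apba1, Aqp1, Btnl9, Ctnnal1, Efnb2, Eps8l2, Nrp2, Pgm5, Plvap and Ptgs1 then still passed. In ECs of neither gate Edn1 stood at 4.13, 7.64 and 1.66 CPM, beside 0, 59.9 and 67.0 in the venous-marked class, the latter from 8 sham and 2 denervated UMIs. The venous-marked class was small, and these p-values do not show that the classes were equal.

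**Figure D5:**
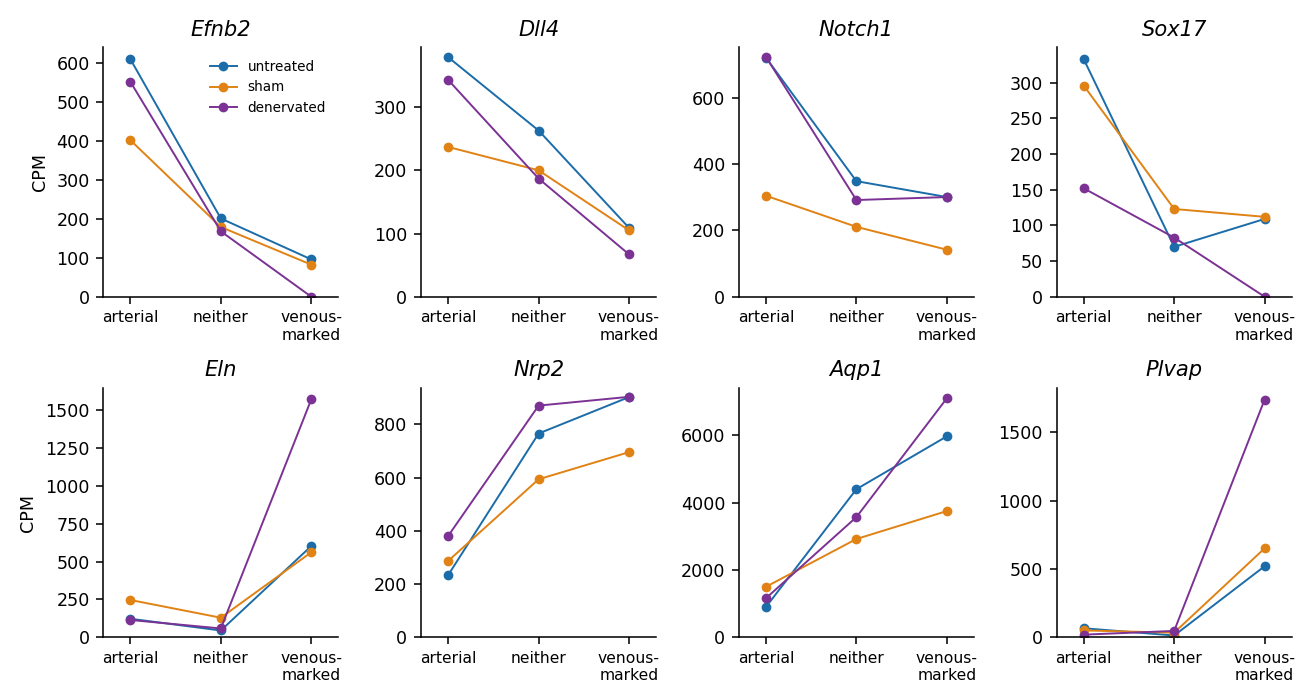
CPM (vertical axes) of Efnb2, Dll4, Notch1, Sox17, Eln, Nrp2, Aqp1 and Plvap in arterial, neither-marked and venous-marked endothelial nuclei, 1 point per library. Efnb2, Dll4, Notch1 and Sox17 are highest in the arterial class, and Eln is highest in the venous-marked class, at 602, 561 and 1570 CPM.

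The members were also split by which genes admitted them. Nuclei with UMIs of Alox12, Sema3g or Gja5 but not of Fbln5 or Col8a1 (183, 148 and 58) were set against nuclei of the reverse pattern (51, 88 and 16). Of 7242 genes 12 were higher (0.166%) and 1 was lower (0.0138%), and 9 of the 12 were mitochondrial. The direction was the same in all 3 libraries for 6 of the 12 and for 0 of the 1. Lpl, lipoprotein lipase, stood at 1650, 1380 and 800 CPM against 496, 601 and 731, above in each library (log2 1.53 ± 0.31, n = 3, edgeR adjusted p = 6.4e-04). Scd1, a desaturase of fatty acids (log2 0.87 ± 0.21), and Sptbn1, a spectrin (0.90 ± 0.21), were the other nuclear genes that were higher. Other adipocyte markers, a list that holds Scd1, had a median of 0.72 with 9 of 9 above 0, and capillary genes, which hold Lpl, a median of 0.77 with 16 of 17 above 0. Their part in these differences was not tested.

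The mitochondrial gene mt-Nd1 stood at 6580, 13900 and 5130 CPM against 4870, 8100 and 3800 in this split (log2 0.94 ± 0.17, n = 3, edgeR adjusted p = 2.9e-05), and the mitochondrial share was 10.4%, 17.2% and 6.01% against 7.99%, 10.2% and 6.06%. The fitted difference of mt-Nd1 lay above the ratio of its CPM in each library. TMM factors, 0.782 to 1.87 in this split, enter the fitted differences but not the CPM. Without TMM, 2 of the 13 calls remained. Rasa4, a regulator of RAS, was lower, at 25.3, 6.95 and 23.5 CPM against 330, 102 and 0. Its denervated pair pointed the other way, and the class at 0 there held 16 nuclei. With depth matched 0 genes were called by edgeR (159 at an unadjusted p below 0.05), and without the sham library 0 (136). DESeq2 called 0 as well (62), whereas without the denervated library edgeR called 22. Of 21 other arterial genes tested 0 were called, with a median of 0.23 against 0.14 over all genes.

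Treatments were set side by side within the arterial nuclei, with 1 library each and therefore no test. Of 6662 genes with at least 20 UMIs in the members, 297 (4.46%) were higher in the denervated library than in both others with counting intervals off 0, and 84 (1.26%) were lower. The denervated sum came from 104 nuclei. Cxcl1, a chemokine for neutrophils, stood at 8.76, 12.8 and 251 CPM in the untreated, sham and denervated members, with a log2 ratio of denervated over sham of 4.29 (2.79 to 6.09). In the reference it stood at 2.23, 12.4 and 59.0 CPM, a ratio of 2.25 (1.55 to 2.97). Cxcl1 was thus highest in the denervated library in both classes.

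Hp, encoding haptoglobin, stood at 52.6, 79.5 and 680 CPM in the members and 59.6, 62.7 and 559 in the reference. Its ratios of denervated over sham, 3.10 (2.41 to 3.80) and 3.16 (2.89 to 3.43), overlapped. Lctl (ratio 3.85, 2.05 to 5.98), Ptp4a1 (2.72, 1.06 to 4.41) and Tshr, the thyrotropin receptor (2.53, 1.02 to 4.03), completed the 5 highest. The summed list of other adipocyte markers stood at 5640, 2600 and 8020 CPM in the members and 6120, 2600 and 7880 in the reference, and its part in these differences was not tested.

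Of 12 listed immediate early genes, 4 (Junb, Egr1, Nr4a1 and Zfp36) were higher in the denervated members than in both other libraries and 0 were lower than in both. Against sham alone Fos (ratio -0.80, -1.67 to -0.03) and Fosb (-1.19, -2.55 to -0.09) were lower. Junb, a subunit of AP-1, stood at 237, 249 and 694 CPM, a log2 ratio over sham of 1.48 (0.95 to 2.0), beside 1.28 (1.10 to 1.46) in the reference. Lrg1, a secreted glycoprotein that modulates TGF-beta signalling, stood at 14.6, 41.0 and 192 CPM (2.23, 1.05 to 3.38, against 1.53, 1.17 to 1.89 in the reference). Clu had a ratio of 2.11 (1.22 to 2.98), with 1.47 (0.81 to 2.12) in the reference. The intervals of the 2 classes overlapped for these 3 genes, and whether the classes differed was not tested.

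Among the genes lower in the denervated library, the 5 lowest rested on 3 or fewer UMIs there. Ezh2, a histone methyltransferase of the Polycomb group, stood at 129, 110 and 14.8 CPM, with a ratio over sham of -2.90 (-8.24 to -0.35), and Rps6kb1, the S6 kinase, at 96.4, 174 and 14.8 (-3.56, -8.89 to -1.04). Rabgap1l (-2.50, -5.57 to -0.59), Slc43a3 (-3.22, -6.28 to -1.33) and Itch (-2.30, -4.61 to -0.70) were the others. Fbln2 stood at 324, 274 and 88.6 CPM in the members, a ratio of -1.63 (-3.11 to -0.46), and at 31.6, 75.9 and 71.6 in the reference (-0.08, -0.56 to 0.37). The capillary enzyme gene Car4 was lower in both classes, with ratios of -1.99 (-3.01 to -1.12) and -1.60 (-1.80 to -1.40). For Kitl in the members, the ratio of denervated over sham was -0.02 (-0.37 to 0.32) and that of denervated over untreated -0.39 (-0.74 to -0.05), while the reference had 0.02 (-0.10 to 0.13) and -0.11 (-0.23 to 0.0011). For Efnb2 in the members they were 0.49 (-0.09 to 1.03) and -0.30 (-0.86 to 0.22).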

How the data were processed

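For each library, the authors deposited the pipeline's table of UMI counts, 1 per gene and nucleus. Per the file headers, the BD Rhapsody pipeline was run on GRCm38 with GENCODE vM19 for untreated and denervated BAT. The sham file carries no header, and the submitters' processing notes name GRCh38. The study's removal of debris and ambient RNA was not repeated. A minimum of 200 genes and a maximum of 50% mitochondrial UMIs per barcode left 36281 of 44897 barcodes, with medians of 859, 781 and 428 UMIs per barcode before the filter. The study gated out doublets on the sorter and then removed nuclei with markers of several cell types. In the deposited tables doublets were limited here by the gates alone (4 times the adipocyte sum, 2 times the pericyte sum).

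UMIs were summed per class and library and tested with edgeR 4.0.16 (TMM, quasi-likelihood, library as block, mean CPM of at least 20, Benjamini-Hochberg adjusted p below 0.05) in R 4.3.3, or DESeq2 1.42.0 as an alternative. Each library gives both classes from the same nuclei preparation, so the sums are paired by design. On data simulated for the comparison with the reference (7087 genes), 61.6% of 99 changes of log2 size 1 and 97.8% of 91 of size 2 were called, with 5 false calls. The simulation gave all genes the same spread and every library the same class effect, so these rates need not hold for the data. Ratios between treatments carry exact conditional binomial intervals of 95%.

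The members and gene lists were chosen with earlier results of these data known. Genes were named as the 10 largest and 10 smallest calls with 1 direction and at least 50 CPM, up to 4 calls per list by size with lead genes that missed, the study's ligands and receptors, and the 5 highest and 5 lowest of the other comparisons; values of Vwf, Col4a1, Cxcr4, Tm4sf1 and other list members beyond 4 were added after they were seen. Promoters came from RefSeq (GRCm38.p6) and gene positions from GENCODE vM21. The leave-out of other non-adipocyte types was added after seeing the data. Python 3.11.15, numpy 2.4.6, scipy 1.17.1, pandas 2.3.3 and matplotlib 3.10.9 were used.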

Additional observations from a re-analysis of the deposited data

Results flagged for a closer look

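The difference between arterial and other endothelial nuclei pointed in opposite directions between libraries, with both counting intervals off 0, for 39 of 7393 genes, of which 3 were in the gene lists and 0 were called. For Ier3, an immediate early gene, the log2 ratio was -2.65 in the denervated and 0.99 in the untreated library. For Aqp7, a glycerol channel of fat, it was -0.37 in the sham and 0.46 in the untreated library. For Efnb1, an ephrin ligand, it was -0.44 in the sham and 0.60 in the untreated library. With 1 library per treatment, whether these ratios differed was not tested.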

How the results depend on the processing

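Arterial against other endothelial nuclei gave 121 genes higher and 43 lower with DESeq2, 195 and 326 with no filter on low counts, 43 and 1 with the pairing of sums by library left out of the model (no replicate block), 153 and 83 with at least 500 genes per nucleus and 29 and 10 with nuclei of all other cell types left out. Leaving out 1 library gave 21 to 289 higher and 2 to 177 lower. Called genes kept their sign under the alternatives run except with all other cell types left out, where 385 of 390 did and Tgfbr2 was at -0.13. These fits reuse the same nuclei or a part of them, so kept signs are not an independent check.

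Against venous-marked nuclei the counts were 38 and 47 with matched depth, 13 and 38 with DESeq2, and 6 to 54 and 17 to 50 with 1 library left out. The split of the members gave 0 higher with matched depth, 3 without TMM, 0 with DESeq2 and 0 to 22 with 1 library left out.

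The share of arterial nuclei (untreated, sham, denervated) was 4.89%, 3.97% and 2.70% with a sum of at least 3, 6.77%, 5.10% and 4.44% without Fbln5 and Col8a1, 10.8%, 13.8% and 11.8% with at least 500 genes, and 4.47%, 3.89% and 4.68% after thinning. Denervated members stood above both other libraries in 153 genes and below in 40 of 4555 (3.36% and 0.878%) with a sum of at least 3, and in 24 and 9 of 1827 (1.31% and 0.493%) with other cell types left out. With at most 10% mitochondrial UMIs the counts were 227 and 96 of 4928 (4.61% and 1.95%). With mitochondrial UMIs left out of the totals they were 242 and 117 of 6649 (3.64% and 1.76%).

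The 104 denervated members limit values in that library, and 1 library per treatment leaves animal, operation and library unseparated. The causes of these shifts were not tested beyond the fewer nuclei or libraries each setting keeps.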
